A study of Mus musculus with 3 samples.

Results

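The genes described here are 40 genes of the hypoxia response and of glycolysis, taken by name and sorted by role into 22 metabolic genes (glucose transporters, glycolytic enzymes and the enzymes that handle pyruvate and lactate) and 18 non-metabolic genes (oxygen sensing and targets of the hypoxia-inducible factors, HIF). Of the 40 genes, 37 had a probe set paired with a single gene, against 18193 genes in the whole series. A gene was called measured when its value on at least 1 array reached a floor at the median of all values (4.34 on the log2 scale), and this held for 31 of the 40 genes and for 11169 genes of the series. Gpi1 and Eno1 had no probe set in the name table used here, and Bnip3l was read only by probe sets shared with a pseudogene, which were left out. Slc2a3, Aldoc, Slc16a3, Egln3, Car9 and Car12 lay below the floor on all 3 arrays.

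RNA was taken from C3H10T1/2 cells, a mouse mesenchymal line with multilineage potential, in 3 conditions with 1 Affymetrix mouse genome array each. The Venus-Mkx cells were infected with a retroviral vector coding for the fluorescent protein Venus together with Mkx (Mohawk), a homeobox transcription factor of tendons and ligaments, the Venus cells with the same vector coding for Venus alone, and the C3H10T1/2 cells carried no overexpressed gene. Per the methods, infected cells were kept in medium with puromycin, and all cells grew in the same medium with serum. The labels give no oxygen level, and no sample was labelled as hypoxic. Mkx was read by 1 probe set, with 2.71 on the Venus-Mkx array, 7.43 on the Venus array and 6.88 on the C3H10T1/2 array, which goes against the label. No source used here says whether the probes lie within the part of Mkx that the vector carries, so the probe set may be no check of the label, and the array is named by its label in what follows. With 1 array per condition no difference has a replicate check, no p-value is given, and fewer cells of a type and less RNA per cell cannot be told apart.

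HIF is a pair of an α subunit (Hif1a, or Epas1, which encodes HIF-2α) and Arnt. In the presence of oxygen the prolyl hydroxylases of the Egln family mark the α subunit, and Vhl then directs its ubiquitination and breakdown, so that much of the control lies at the protein and not the mRNA, which is what an array reads. When oxygen is low, the pair binds short DNA elements with a core of ACGTG or GCGTG and raises transcription of glucose transporters, most glycolytic enzymes, lactate dehydrogenase A, Pdk1, Vegfa, Adm, Bnip3 and the hydroxylases themselves.

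The promoters of 6 of the genes are shown as examples of windows that differ in these cores. Whether the cores bear on the values was not tested. Each runs from 250 bases before to 50 bases after the first transcription start listed in RefSeq, build GRCm38.p6, is written 5′ to 3′ on the gene's strand, and has in capitals every ACGTG or GCGTG on either strand (the reverse complements are CACGT and CACGC). The palindrome CACGTG holds ACGTG on both strands, counts as 2 matches and is also an E-box. Slc2a1, Pgk1, Ldha and Bnip3 were among the genes whose value was lowest on the array labelled Venus-Mkx and highest on the C3H10T1/2 array, and Ldhb and Adm were the genes with the largest differences from the nearer control. The windows lie at chr4:119108495-119108794 on the plus strand (Slc2a1), chrX:106186850-106187149 on the plus strand (Pgk1), chr7:46845554-46845853 on the plus strand (Ldha), chr7:138909457-138909756 on the minus strand (Bnip3), chr6:142507908-142508207 on the minus strand (Ldhb) and chr7:110627407-110627706 on the plus strand (Adm).
Slc2a1: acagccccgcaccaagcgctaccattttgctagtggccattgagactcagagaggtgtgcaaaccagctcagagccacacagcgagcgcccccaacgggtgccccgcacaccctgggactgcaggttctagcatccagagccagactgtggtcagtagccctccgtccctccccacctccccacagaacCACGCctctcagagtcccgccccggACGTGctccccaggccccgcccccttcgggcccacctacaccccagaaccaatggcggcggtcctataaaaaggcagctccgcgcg
Pgk1: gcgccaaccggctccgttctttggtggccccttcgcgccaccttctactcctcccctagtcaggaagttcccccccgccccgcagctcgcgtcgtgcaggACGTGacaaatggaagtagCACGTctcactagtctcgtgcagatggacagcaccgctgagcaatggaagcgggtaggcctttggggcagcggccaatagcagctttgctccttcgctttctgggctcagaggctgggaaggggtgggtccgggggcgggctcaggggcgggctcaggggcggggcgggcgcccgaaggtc
Ldha: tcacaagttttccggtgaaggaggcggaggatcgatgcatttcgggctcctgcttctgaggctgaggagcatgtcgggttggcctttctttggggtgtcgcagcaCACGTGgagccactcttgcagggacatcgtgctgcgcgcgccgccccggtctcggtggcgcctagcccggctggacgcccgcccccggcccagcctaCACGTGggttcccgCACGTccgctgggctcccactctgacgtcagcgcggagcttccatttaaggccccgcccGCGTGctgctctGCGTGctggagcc
Bnip3: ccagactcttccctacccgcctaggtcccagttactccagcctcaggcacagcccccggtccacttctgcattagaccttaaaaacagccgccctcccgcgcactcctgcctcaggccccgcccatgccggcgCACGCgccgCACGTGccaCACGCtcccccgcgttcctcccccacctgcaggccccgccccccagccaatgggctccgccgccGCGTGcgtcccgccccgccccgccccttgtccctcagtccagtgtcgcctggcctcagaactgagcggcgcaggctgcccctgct
Ldhb: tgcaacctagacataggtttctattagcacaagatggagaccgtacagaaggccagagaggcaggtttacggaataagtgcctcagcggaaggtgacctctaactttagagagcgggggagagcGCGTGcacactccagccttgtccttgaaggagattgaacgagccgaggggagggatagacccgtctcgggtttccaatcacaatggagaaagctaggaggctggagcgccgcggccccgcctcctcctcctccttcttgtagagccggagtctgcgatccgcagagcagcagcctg
Adm: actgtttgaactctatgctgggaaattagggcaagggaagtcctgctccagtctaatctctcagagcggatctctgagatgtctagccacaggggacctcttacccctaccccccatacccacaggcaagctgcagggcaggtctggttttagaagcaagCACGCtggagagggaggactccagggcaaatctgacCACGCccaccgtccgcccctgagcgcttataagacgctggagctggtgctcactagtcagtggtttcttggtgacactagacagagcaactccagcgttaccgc
The first 4 windows held 1 (Slc2a1), 2 (Pgk1), 5 (Ldha) and 2 (Bnip3) matches to ACGTG, whereas those of Ldhb and Adm held 0, with 1 and 2 matches to GCGTG. The examples do not stand for all genes of the set. Hif1a, Pfkm, Ddit4 and Pfkfb3 lacked this order of values, and their windows, not printed, held 3, 3, 1 and 1 matches to ACGTG.

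Across the measured genes of the set, 3 of 31 (Adm, Epas1 and Ldhb, 9.68%) were at least 2-fold lower on the array labelled Venus-Mkx than on both control arrays, and 0 were at least 2-fold higher. Among all 11169 measured genes, 5.34% were lower by this rule and 6.82% higher. The median log2 difference of the 31 genes was −0.34 from Venus and −0.60 from C3H10T1/2, beside a median of 0.00 over all measured genes in both comparisons. The 31 genes were thus shifted by a modest amount on the lower side, with few members past 2-fold. Of the 31 genes, 18 (58.1%) lay below both controls by any amount, against 40.0% of all measured genes, and 9 lay above both, against 37.7%. Both differences share the array labelled Venus-Mkx, so they are not independent of each other. For scale, the SD of the log2 difference over all measured genes was 0.94 for Venus-Mkx minus Venus, 1.03 for Venus-Mkx minus C3H10T1/2 and 0.34 for Venus minus C3H10T1/2.

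**Figure D1:**
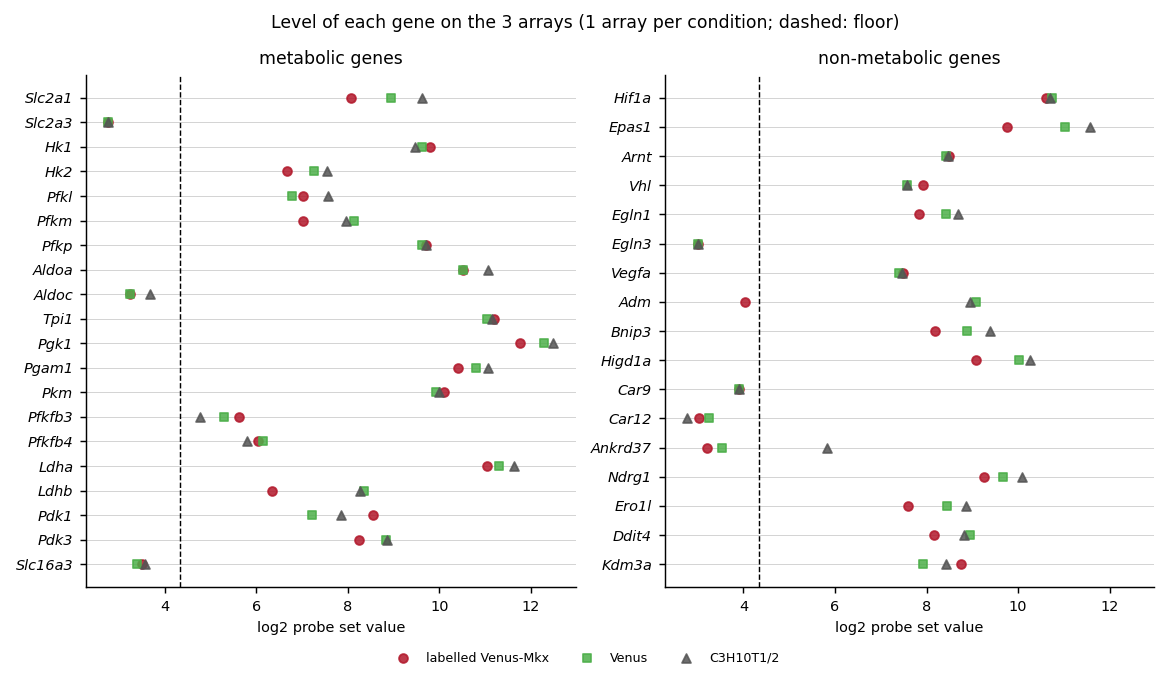
Log2 probe set values of the 37 genes with a probe set on the 3 arrays, metabolic genes at left and non-metabolic genes at right, 1 point per array (red circles, labelled Venus-Mkx; green squares, Venus; grey triangles, C3H10T1/2), with the floor of 4.34 dashed. Adm stands apart with 4.04 on the array labelled Venus-Mkx, against 9.08 and 8.94 on the controls, and in Slc2a1, Epas1, Bnip3 and Ero1l the red, green and grey points follow each other from low to high.

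The 17 measured metabolic genes had a median log2 difference of −0.12 from Venus and −0.56 from C3H10T1/2, with 1 at least 2-fold lower than both controls. The 14 measured non-metabolic genes had medians of −0.51 and −0.85, with 2 lower than both. With no floor the metabolic median was 0.00 from Venus. In both classes the distance from C3H10T1/2 was larger than that from Venus, and the Venus array itself had medians of −0.12 (metabolic) and −0.25 (non-metabolic) relative to C3H10T1/2.

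Glucose enters these cells through facilitative transporters. Slc2a1, which encodes GLUT1, had 8.08 on the array labelled Venus-Mkx, 8.94 on the Venus array and 9.63 on the C3H10T1/2 array. It was 1.81-fold lower on the array labelled Venus-Mkx than on the Venus array and 2.93-fold lower than on the C3H10T1/2 array, and Venus was 1.62-fold lower than C3H10T1/2. All 3 Slc2a1 probe sets showed this order, with log2 differences of −0.93 to −0.70 from Venus and −1.85 to −1.48 from C3H10T1/2. Slc2a3, which encodes GLUT3, gave no level above the floor on any array.

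The enzymes of the upper part of the pathway did not move together. Hk2, the inducible hexokinase, had 6.67 on the array labelled Venus-Mkx, 7.26 on the Venus array and 7.56 on the C3H10T1/2 array, whereas Hk1, the widely expressed hexokinase, had 9.79, 9.63 and 9.47 in the same order of arrays. The hexokinases were therefore ordered in opposite directions, though each step of Hk1 was only 0.16 on the log2 scale and a second Hk1 probe set read 5.61 on all 3 arrays. Of the phosphofructokinases, which catalyse the committed step, the muscle form Pfkm had 7.03 on the array labelled Venus-Mkx, against 8.13 on the Venus array and 7.96 on the C3H10T1/2 array. It was 2.14-fold lower than Venus and 1.90-fold lower than C3H10T1/2, and so missed the 2-fold rule on the second control. The liver form Pfkl had 7.02, 6.79 and 7.58, lower than C3H10T1/2 by 0.56 on the array labelled Venus-Mkx and by 0.79 on the Venus array. The platelet form Pfkp had 9.71, 9.62 and 9.71, so that of the 3 forms the muscle form alone lay below both controls. Aldolase A (Aldoa) had 10.51 on the array labelled Venus-Mkx, 10.51 on the Venus array and 11.06 on the C3H10T1/2 array, and the 5 probe sets of Aldoa lay between −0.63 and −0.39 relative to C3H10T1/2. Here the Venus array sat with the array labelled Venus-Mkx and away from C3H10T1/2. Triose phosphate isomerase (Tpi1) had 11.19, 11.04 and 11.16 and differed from neither control by more than 0.15.

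In the lower part of the pathway, Pgk1, the first ATP-yielding enzyme, had 11.75 on the array labelled Venus-Mkx, 12.28 on the Venus array and 12.49 on the C3H10T1/2 array. It was 1.44-fold lower than Venus and 1.67-fold lower than C3H10T1/2, and its 3 probe sets had log2 differences from Venus of −0.64 to −0.36. Pgam1, phosphoglycerate mutase, had 10.41, 10.80 and 11.06, the same order with steps of 0.38 and 0.27. Pyruvate kinase (Pkm), which catalyses the last step, had 10.10, 9.93 and 10.00 and did not show this order. The bifunctional enzymes that set the level of fructose 2,6-bisphosphate, an activator of phosphofructokinase, differed from the enzymes around them. Pfkfb3, which favours its synthesis, had 5.63 on the array labelled Venus-Mkx, 5.29 on the Venus array and 4.78 on the C3H10T1/2 array, 1.80-fold higher than C3H10T1/2, while Pfkfb4 had 6.03, 6.15 and 5.80.

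The pyruvate and lactate enzymes held the largest differences from Venus among the metabolic genes in either direction, Ldhb and Pdk1, although relative to C3H10T1/2 the difference of Pdk1 (0.69) was smaller than that of Pfkfb3 (0.85). Ldha, the lactate dehydrogenase subunit that favours lactate formation, had 11.04 on the array labelled Venus-Mkx, 11.30 on the Venus array and 11.63 on the C3H10T1/2 array. Ldhb, the subunit that favours pyruvate, had 6.34 on the array labelled Venus-Mkx, against 8.36 on the Venus array and 8.26 on the C3H10T1/2 array. Ldhb was 4.04-fold lower than Venus and 3.78-fold lower than C3H10T1/2, while the controls were 1.07-fold apart. All 4 Ldhb probe sets met the 2-fold rule, with log2 differences from Venus of −4.10 to −2.02. The probe set with the largest difference had 3.83 on the array labelled Venus-Mkx, below the floor, against 7.93 on the Venus array and 7.62 on the C3H10T1/2 array, which makes it at least 12.0-fold lower than Venus and at least 9.73-fold lower than C3H10T1/2.

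Pdk1, a kinase that switches off pyruvate dehydrogenase and is a known HIF-1 target, stood on the other side. It had 8.54 on the array labelled Venus-Mkx, against 7.22 on the Venus array and 7.85 on the C3H10T1/2 array, 2.50-fold higher than Venus and 1.62-fold higher than C3H10T1/2, with the Venus array the lowest of the 3. The 3 Pdk1 probe sets that reached the floor had log2 differences of 1.13 to 1.32 from Venus and 0.69 to 0.84 from C3H10T1/2. Pdk3, a related kinase, had 8.25 on the array labelled Venus-Mkx, 8.84 on the Venus array and 8.85 on the C3H10T1/2 array, with log2 differences of −0.59 and −0.60. Slc16a3, which encodes the lactate exporter MCT4, was below the floor on every array.

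Of the genes that sense oxygen, the α subunits differed from each other. Epas1 had 9.76 on the array labelled Venus-Mkx, 11.03 on the Venus array and 11.56 on the C3H10T1/2 array. It was 2.40-fold lower than Venus and 3.48-fold lower than C3H10T1/2, and Venus was 1.45-fold lower than C3H10T1/2. The second Epas1 probe set kept the order at a smaller size, with log2 differences of −0.62 and −0.82 that did not meet the rule. Hif1a had 10.62, 10.74 and 10.70 on the 3 arrays and Arnt, the shared partner, had 8.50, 8.42 and 8.47, so both stayed within 0.12 of either control on these probe sets. A second Hif1a probe set had 7.17 on the array labelled Venus-Mkx, against 7.77 on the Venus array and 7.60 on the C3H10T1/2 array. A second Arnt probe set had 8.04, 7.83 and 7.68 in the same order of arrays, 0.21 above Venus and 0.36 above C3H10T1/2. Egln1, the main prolyl hydroxylase of most cells and itself a HIF target, had 7.84 on the array labelled Venus-Mkx, 8.43 on the Venus array and 8.69 on the C3H10T1/2 array. Its second probe set met the 2-fold rule, with differences of −1.07 and −1.31. Vhl had 7.92 on the array labelled Venus-Mkx and 7.58 on both controls, a difference of 0.34 that its other probe set did not show (−0.01).

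Adm, which encodes the vasodilator peptide adrenomedullin, had the largest difference of the set. It had 4.04 on the array labelled Venus-Mkx, against 9.08 on the Venus array and 8.94 on the C3H10T1/2 array. The lowest value lay under the floor, so Adm was at least 26.6-fold lower than Venus and at least 24.2-fold lower than C3H10T1/2, while the controls were 1.10-fold apart. The second Adm probe set read 2.82 on the array labelled Venus-Mkx, and was at least 20.6-fold lower than Venus and at least 25.2-fold lower than C3H10T1/2. Vegfa, the vascular growth factor and the other secreted HIF target of the set, had 7.48 on the array labelled Venus-Mkx, 7.40 on the Venus array and 7.47 on the C3H10T1/2 array. These secreted targets therefore differed from each other on the same arrays, with Vegfa within 0.08 of both controls.

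The remaining HIF targets were mostly lower, without reaching 2-fold from both controls. Bnip3, which promotes mitophagy, had 8.18 on the array labelled Venus-Mkx, 8.88 on the Venus array and 9.38 on the C3H10T1/2 array. Higd1a, a mitochondrial inner membrane protein, had 9.08, 10.02 and 10.26, and its other probe sets showed the same order at −0.06 and −0.22 from Venus. Ero1l (listed as Ero1a in the table of starts), the endoplasmic reticulum oxidase that serves disulphide formation, had 7.60 on the array labelled Venus-Mkx, 8.45 on the Venus array and 8.85 on the C3H10T1/2 array. Its other 2 probe sets met the 2-fold rule, with differences from Venus of −1.39 and −1.13. Ndrg1, a stress-responsive gene, had 9.25, 9.67 and 10.10, and all 5 of its probe sets followed the order. Ddit4, which encodes the mTORC1 inhibitor REDD1, had 8.16 on the array labelled Venus-Mkx, against 8.96 on the Venus array and 8.82 on the C3H10T1/2 array. Kdm3a, a histone H3K9 demethylase, was higher than both, with 8.75 against 7.92 on the Venus array and 8.42 on the C3H10T1/2 array, and like Pdk1 it was lowest on the Venus array.

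The probe sets of a gene read the same RNA on the same array and are no replicates, but they show how far a value depends on the probes. Of the measured genes, 19 had several probe sets that reached the floor, and in 0 of these did probe sets differ in sign with both beyond 0.1. Adm and Ldhb were the 2 genes in which every such probe set met the 2-fold rule. Epas1, Egln1 and Ero1l had probe sets on either side of it. When the probe sets of each gene were averaged, Epas1 no longer met the rule and Ero1l did. Sets of the _x_at and _s_at kind, which can also read related transcripts, stood for Aldoa, Tpi1, Adm and Ndrg1.

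**Figure D2:**
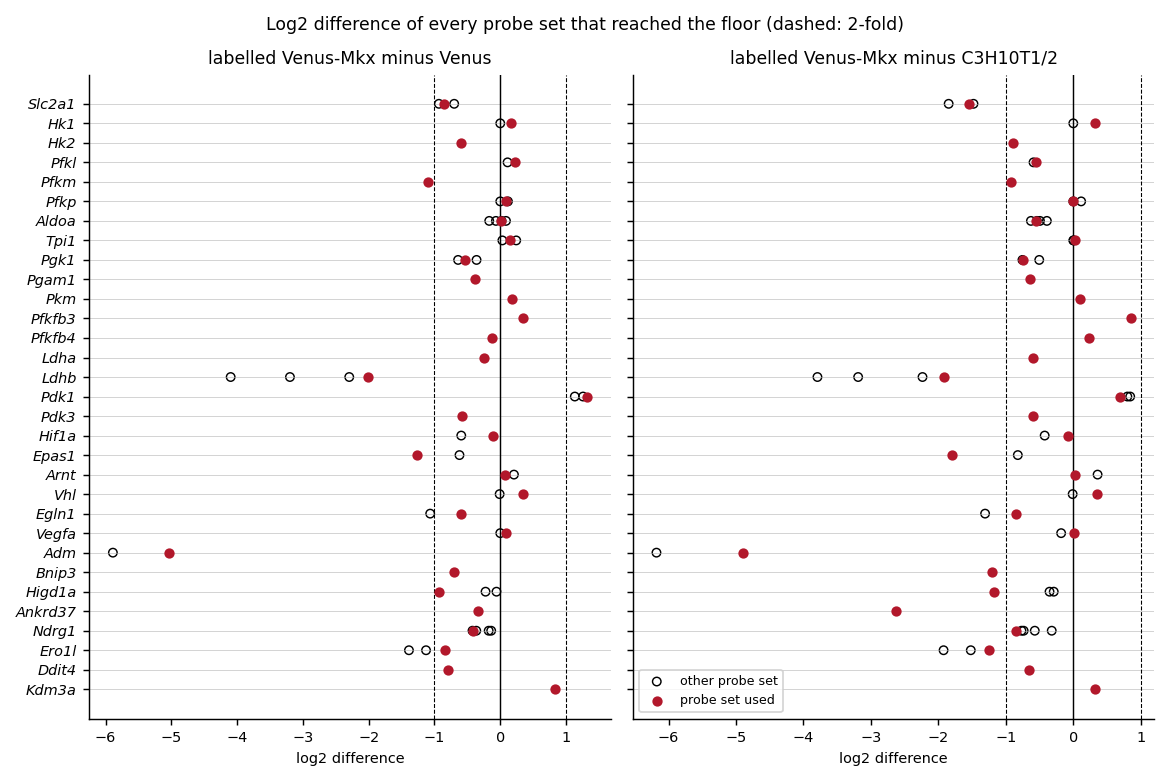
Log2 differences of the array labelled Venus-Mkx from Venus (left) and from C3H10T1/2 (right) for every probe set that reached the floor, 1 row per gene, with the probe set used filled in red, the others open, and 2-fold dashed. All 4 Ldhb and both Adm probe sets lie left of the 2-fold line in both panels, and the 3 Pdk1 probe sets lie right of it against Venus but not against C3H10T1/2.

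Between the controls, 1 of the 31 genes was at least 2-fold lower on the Venus array than on the C3H10T1/2 array and 0 were at least 2-fold higher, against 0.555% and 1.49% of all measured genes. The gene was Ankrd37, an ankyrin repeat gene induced by HIF-1, with 3.54 on the Venus array, against 5.83 on the C3H10T1/2 array. With 3.20 on the array labelled Venus-Mkx, both arrays from cells with a vector were under the floor and at least 2.81-fold lower than C3H10T1/2. Whether the vector, the infection or the puromycin goes with this difference cannot be told apart with these arrays.

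Below 2-fold, many of the genes were ordered in steps, lowest on the array labelled Venus-Mkx, intermediate on the Venus array and highest on the C3H10T1/2 array. This count was made after the values were seen. It held for 13 of 31 genes (41.9%), namely Slc2a1, Hk2, Pgk1, Pgam1, Ldha, Pdk3, Epas1, Egln1, Bnip3, Higd1a, Ankrd37, Ndrg1 and Ero1l, against 19.9% of all measured genes. With each step required to be at least 0.1 on the log2 scale it held for 12 genes (all but Pdk3), against 10.5% of all measured genes. With steps of any size, the order was also found in 4 of 9 measured housekeeping genes (44.4%), of which 5 (55.6%) lay below both controls. With steps of at least 0.1 it was found in 1 of the 9 housekeeping genes. The companion lists described further on were counted in the same way. Any size of step gave 1 of 18 other glycolysis genes, 4 of 15 other HIF pathway components and 8 of 34 other HIF targets. Steps of at least 0.1 gave 1, 0 and 4 of them. The reverse order, with steps of any size, was found in 2 genes, Hk1 and Pfkfb3 (6.45%), against 20.4%. By class, the order toward lower values, with steps of any size, was found in 6 of 17 metabolic and 7 of 14 non-metabolic genes. Ankrd37 was under the floor on both arrays with a vector, so their order carries no information, and 12 genes had the order without it. Of the 3 genes lower than both controls, Epas1 alone followed the steps on the probe sets used, where Adm and Ldhb had Venus above C3H10T1/2 by 0.14 and 0.10. The second Adm probe set had Venus below C3H10T1/2, with a log2 difference of −0.29, and so followed the steps, while all 4 Ldhb probe sets had Venus the higher, by 0.01 to 0.31. The Venus array enters both steps, and with 1 array per condition a difference between cultures or hybridizations cannot be told apart from the vector.

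**Figure D3:**
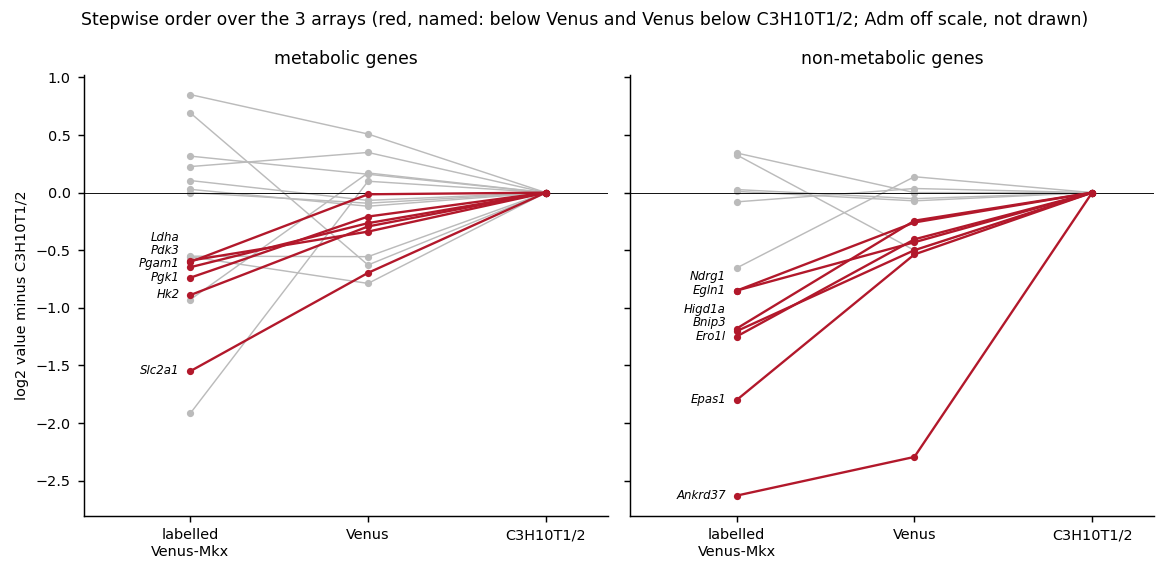
Log2 value of each measured gene minus its value on the C3H10T1/2 array, for the array labelled Venus-Mkx, the Venus array and the C3H10T1/2 array, with metabolic genes at left and non-metabolic genes at right and 1 line per gene. Red, named lines are the 13 genes ordered in steps, with Slc2a1 reaching −1.55 and Epas1 −1.80, and grey lines are the others (Adm lies outside the axis and is not drawn). Ankrd37 is drawn to −2.63, but it lay under the floor on both arrays with a vector, so this size is not a measured one.

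Promoter windows were listed for 36 of the 40 genes. At the first start listed, 19 of them (52.8%) held ACGTG on either strand, against 19.7% of the windows of 27025 genes of the same length and 26.1% of those of 9070 measured genes. Many of these genes were included because they are known HIF targets, so an excess of the core says nothing about these arrays. Among the measured genes of the set, ACGTG was found in 11 of 11 windows of the genes ordered in steps. Without Ankrd37 it was found in 10 of 10. Of the windows of the others, 4 of 18 (22.2%) held it, those of Hif1a, Pfkm, Ddit4 and Pfkfb3. The split depends on the probe sets chosen. Without the _x_at and _s_at probe sets Adm joined the genes ordered in steps, and 11 of 12 windows (91.7%) held the core, against 4 of 16 (25.0%) of the others. When probe sets were averaged, Adm and Aldoa joined without a match at the first start, and the counts were 12 of 14 (85.7%) and 3 of 15. With arrays centred on their medians Aldoa joined, with 11 of 12 and 4 of 17. Over all measured genes the same split gave 506 of 1832 windows (27.6%) for genes ordered in steps and 1860 of 7238 (25.7%) for the others. When any listed start could hold the match, the counts were 11 of 11 and 8 of 18 (44.4%) within the set, and 31.1% and 29.2% over all measured genes. This split was looked at after the order of the values was known, carries no test, and a match in a window is not a site of binding.

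Windows with and without the core were found among the genes with large differences. Adm and Ldhb, as printed above, held 0 matches to ACGTG, and so did Pdk1, whose window held 2 matches to GCGTG. Ankrd37 and Slc2a1, with differences from C3H10T1/2 of −2.63 and −1.55, held 2 and 1 matches to ACGTG, and no window was listed for Epas1. The GCGTG core was common, being present in 52.7% of the windows of measured genes. Ldha held 5 matches to ACGTG, of which 2 CACGTG palindromes made 4, but was among the genes with small steps (0.25 and 0.34).

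**Figure D4:**
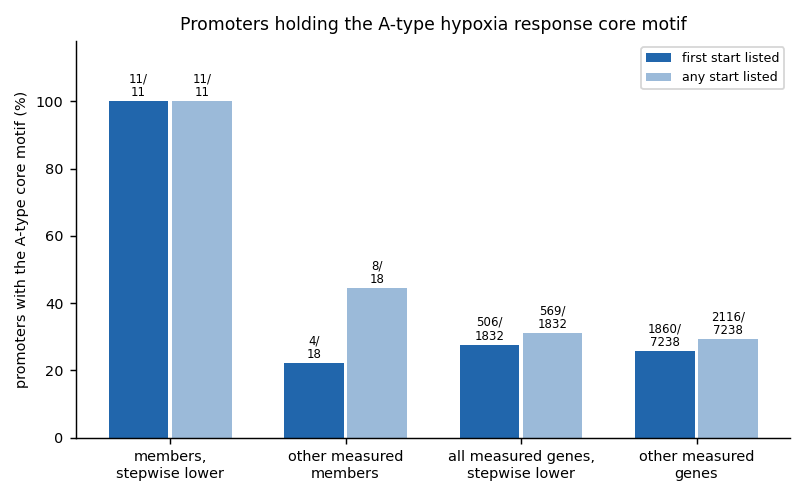
Share of promoter windows, in percent, that hold the ACGTG core on either strand, at the first start listed (dark bars) and at any start listed (light bars), with the counts above the bars. The genes of the set that were ordered in steps stand at 100%, the other measured genes of the set at 22.2% and 44.4%, and the bars of all measured genes lie between 25.7% and 31.1%.

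Companion lists show how far the neighbouring genes shared these differences, beside 6.82% of all measured genes higher and 5.34% lower by the 2-fold rule. Of 18 further measured glycolysis genes, 5 were at least 2-fold higher on the array labelled Venus-Mkx than on both controls (Eno2, Eno3, Pgm1, Slc16a1 and Bsg), 3 were lower (Pgm2, Galm and Pdk4), and the median difference from Venus was 0.27. Eno3, the muscle enolase, had 10.91 on the array labelled Venus-Mkx, against 7.82 on the Venus array and 6.83 on the C3H10T1/2 array, 8.52-fold and 17.0-fold higher. Slc16a1, which encodes the lactate transporter MCT1, had 10.76 on the array labelled Venus-Mkx, against 9.43 and 9.68 on these controls, and Bsg, its chaperone basigin, had 11.60, against 10.26 and 10.53. The transporter and its chaperone were thus higher together, by 2.50-fold and 2.54-fold relative to Venus. Pdk4, a further kinase of pyruvate dehydrogenase, had 5.33 on the array labelled Venus-Mkx, against 9.01 on the Venus array and 7.88 on the C3H10T1/2 array. The measured pyruvate dehydrogenase kinases named here thus lay on both sides, with Pdk1 above the controls and Pdk3 and Pdk4 below them.

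Of 15 other measured components of the HIF pathway, 0 were higher and 1 was lower, with a median difference from Venus of −0.06. The lower gene was Cited2, a HIF-induced protein that competes with HIF-1α for its coactivators, with 9.12 on the array labelled Venus-Mkx, against 10.65 on the Venus array and 10.12 on the C3H10T1/2 array. Of 34 other measured HIF targets, 7 were higher (Ppp1r3c, Stc1, Hmox1, Angptl4, Bhlhe40, Selenbp1 and Rora), 4 were lower (P4ha2, Plod2, Nfil3 and Cxcl12), and the median was 0.16. Hmox1, haem oxygenase 1, had 10.23 on the array labelled Venus-Mkx, against 7.68 on the Venus array and 7.82 on the C3H10T1/2 array. Bhlhe40, a transcriptional repressor, had 9.42, against 7.66 and 7.73, and Angptl4, an inhibitor of lipoprotein lipase, had 7.91, against 6.44 and 6.18. HIF targets outside the set were therefore found on both sides. More of them were at least 2-fold higher than lower, which also held for all measured genes (6.82% higher and 5.34% lower). The collagen-modifying enzymes P4ha2 and Plod2 were 3.45-fold and 2.84-fold lower than Venus, and Plod2 met the 2-fold rule on both of its probe sets. Other collagen-modifying enzymes of the list did not share this on the probe sets used. P4ha1, Plod1 and Lox had log2 differences of 0.15, 0.17 and −0.02 from Venus, and of −0.48, 0.00 and −0.09 from C3H10T1/2. Nfil3, a bZIP transcription factor, had 3.57 on the array labelled Venus-Mkx, below the floor, against 7.67 on the Venus array and 7.56 on the C3H10T1/2 array, at least 10.0-fold and 9.31-fold lower. Of 9 measured housekeeping genes, 0 were called in either direction, and their differences from Venus lay between −0.53 and 0.31.

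**Figure D5:**
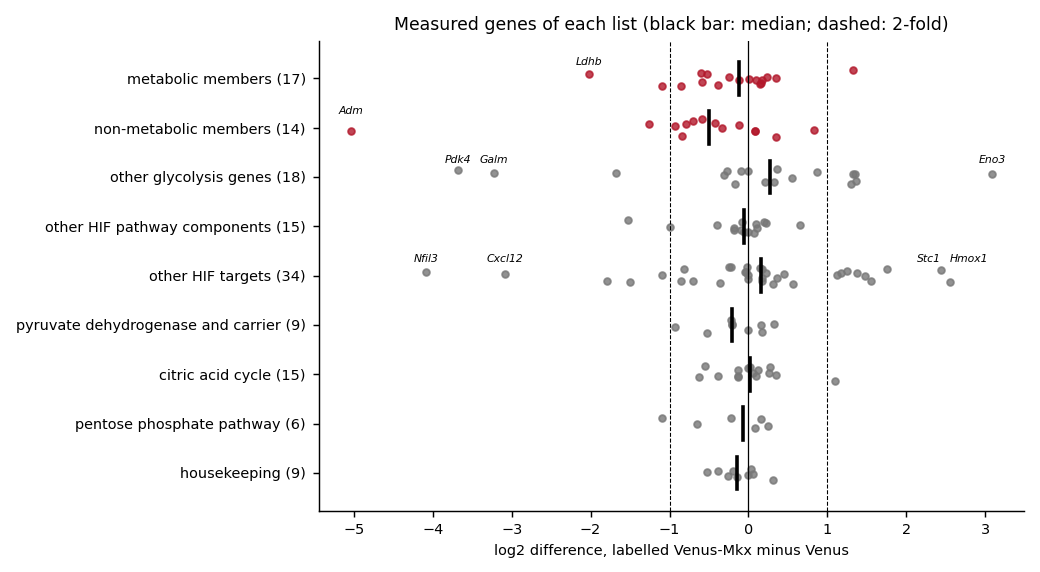
Log2 difference of the array labelled Venus-Mkx from Venus for each measured gene of the set (red, by class) and of the companion lists (grey), 1 point per gene, with the number measured in brackets, a black bar at the median and 2-fold dashed. The medians lie at −0.12 and −0.51 for the 2 classes, against 0.27 for other glycolysis genes, 0.16 for other HIF targets and −0.14 for housekeeping genes.

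Markers of the cell line and of other cell types were read on the same arrays. Each summed level covers all markers of a list that had a probe set, those below the floor included. Of 10 mesenchymal markers 8 were measured, Nt5e lay below the floor, and the summed linear level was 46279 on the array labelled Venus-Mkx, 44065 on the Venus array and 41466 on the C3H10T1/2 array. On the probe sets used, the 2-fold rule was met by 2 of these markers, both higher. They were Col1a1, a chain of type I collagen, with 13.22 on the array labelled Venus-Mkx, against 11.88 on the Venus array and 11.52 on the C3H10T1/2 array, and Thy1 with 8.68, against 7.26 and 7.27. A second Col1a1 probe set, with 0.82 from Venus and 1.27 from C3H10T1/2, did not meet the rule. By any amount, 4 of the 8 lay above both controls and 3 below both. Those below were Pdgfra (−0.69 from Venus and −1.01 from C3H10T1/2), Vim (−0.44 and −0.43) and S100a4 (−0.27 and −0.19). Another Pdgfra probe set met the 2-fold rule on the lower side, with −1.12 and −1.26. Of 6 macrophage markers, Csf1r and Lyz2 were measured and were higher on the array labelled Venus-Mkx, Ptprc, Cd68, Adgre1 and Itgam lay below the floor, and the summed linear level was 283 on the array labelled Venus-Mkx, 105 on the Venus array and 70.9 on the C3H10T1/2 array. The size for Csf1r depended on the probe set, with 1.23 from Venus on the one used, and 0.79 and 0.21 on the others, which did not meet the 2-fold rule. Of 5 endothelial markers only Tek was measured, and the summed level of all 5 was 92.8, 46.2 and 54.2. Of 6 epithelial markers Epcam and Krt5 were measured, with Cdh1, Krt8, Krt18 and Krt14 below the floor, and the summed level of all 6 was 267, 203 and 180. Epcam had 7.60 on the array labelled Venus-Mkx, against 7.03 on the Venus array and 6.74 on the C3H10T1/2 array, on an _x_at probe set. The other Epcam probe set read 3.06 on all 3 arrays, below the floor. The part of these markers in the differences of the hypoxia and glycolysis genes was not tested.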

How the data were processed

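Each of 3 conditions was read on 1 Affymetrix array. The paper's methods name MAS 5.0, and the submitters' processing notes name RMA with no version. The values that the authors deposited are log2 probe set values, which were used with no further normalization and whose arrays have medians of 4.39 (labelled Venus-Mkx), 4.34 (Venus) and 4.34 (C3H10T1/2). No detection calls were used, so signal over background limits what low values can show, and 24.6% of probe sets held an equal value on all 3 arrays.

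The arrays hold 45101 probe sets. Controls (64, among them those for Gapdh, which is not reported) were left out, 34945 had 1 gene symbol, 932 several and 9160 none in the platform table used here. Names and promoter windows came from RefSeq, assembly GRCm38.p6, and Ero1l was matched through the synonym Ero1a. Each gene was represented by its probe set of highest mean value. A gene was called higher or lower when it was at least 2-fold from both controls in the same direction. Where a value lay below the floor of 4.34, the fold was computed against the floor and given as a lower limit. Levels of different probe sets were not compared.

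All 40 genes were named by rule, with values on all arrays for those past 2-fold, those of a related pair and those with the highest levels, and other members were added for their role. Genes of companion lists were named when at least 2-fold from both controls. The members, lists and rules were chosen with earlier results of these data known, and the stepwise count and its promoter split were made after the values were seen. No test was run, because there is 1 array per condition. The counting rule was run on simulated data, where recovery was required only for shifts well past 2-fold. That run is therefore no check of the rule near its threshold. Python 3.11.15, NumPy 2.4.6, pandas 2.3.3 and matplotlib 3.10.9 were used. Alternatives varied the floor, probe set rule, scaling, control array and fold threshold.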

Additional observations from a re-analysis of the deposited data

How the results depend on the processing

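No paired analysis was possible because each condition has 1 array. Adm and Ldhb were lower than both controls under every alternative run, and Epas1 under all except the mean of all probe sets, where Ero1l took its place, and the 3-fold threshold, which left 2 genes. At 1.5-fold, 12 genes were lower (11.6% of all measured genes), 1 was higher (Pdk1, 12.0%) and 4 were apart between Venus and C3H10T1/2 (6.05%). With the higher floor at the 75th percentile, 0 were apart between these controls (1.99%). Against Venus alone, 1 gene was higher (Pdk1, 7.42%) and 4 were lower (6.68%). Against the mean of the 2 controls, 1 was higher (Pdk1, 7.97%) and 8 were lower (6.66%), and against C3H10T1/2 alone 8 were lower (6.80%). The percentages in brackets are shares of all genes measured under the same rule. The median difference of the metabolic genes, −0.12 from Venus, was 0.00 with no floor, −0.25 with the higher floor, −0.56 against C3H10T1/2 and −0.27 against the mean of the controls. That of the non-metabolic genes, −0.51, was −0.34 with no floor, −0.37 with the mean of all probe sets, −0.85 against C3H10T1/2 and −0.72 against the mean of the controls. The causes were not tested. The stepwise count lay between 12 and 16 under the alternatives run, and the share of its promoter windows with ACGTG between 85.7% and 100%. The share of all measured genes with this order also moved, from 19.9% in the main run to 13.5% with no floor. Every other change of floor, probe set rule or scaling raised that share. It was 24.2% with the mean of all probe sets, where the count was 16, and 24.4% with quantile normalization, where the count was 13. In the differences of single genes, 3 of 31 changed sign against C3H10T1/2 alone and 3 against the mean of the controls, 1 changed with centred arrays and 1 with the mean of probe sets, and 0 under the others. Replicate error is unknown, and values under the floor set lower limits only.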

Other observations

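The pathways that branch from glycolysis or follow it were counted by the same 2-fold rule. Among all measured genes, 6.82% were higher and 5.34% lower by this rule. Lists this small cannot be set apart from those shares by 0 or 1 call. Of 15 measured genes of the citric acid cycle, 1 was at least 2-fold higher on the array labelled Venus-Mkx than on both controls and 0 were lower, with a median difference from Venus of 0.02. The gene was Suclg2, the GTP-specific β subunit of succinyl-CoA synthetase, with 10.43 on the array labelled Venus-Mkx, against 9.33 on the Venus array and 9.20 on the C3H10T1/2 array, and both of its probe sets met the rule. Of 9 measured genes of pyruvate dehydrogenase and the pyruvate carrier, 0 were called in either direction, with a median of −0.21. Of 6 measured genes of the pentose phosphate pathway, 1 was lower and 0 were higher. This was Pgd, 6-phosphogluconate dehydrogenase, with 9.71 on the array labelled Venus-Mkx, against 10.80 on the Venus array and 10.82 on the C3H10T1/2 array, 2.13-fold and 2.16-fold lower, and 2 of its 4 probe sets did not meet the rule, with differences of −0.97 and −0.92 from Venus. Of 7 genes of gluconeogenesis 3 were measured, and 0 were called.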
